A study of Mus musculus with 6 samples.

Results

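The genes described here were the FGF ligands and receptors of the branching lung, which were taken by symbol from a table of normalized RNA-Seq counts. All 10 listed genes were found among the 23420 genes of the table. They were the 6 ligand genes *Fgf1*, *Fgf7*, *Fgf9*, *Fgf10*, *Fgf18* and *Fgf20* and the 4 receptor genes *Fgfr1*, *Fgfr2*, *Fgfr3* and *Fgfr4*. Of these, 9 passed the filter on low values and were tested, and *Fgf20* did not.

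The libraries were made from whole mouse lungs at the stage given as E11.5dpc (embryonic age in days post coitus). Control lungs had the genotype Raptorf/+; ShhCre/+ and mutant lungs Raptorf/f; ShhCre/+, where Raptor is *Rptor*, which encodes a core subunit of mTORC1, a kinase complex that couples growth to nutrients. Both groups thus carried *Shh* Cre, which is active in the lung epithelium, and controls also carried 1 floxed allele, so that *Rptor* deletion was directed to the epithelium while RNA came from all cells of the lung. There were 3 pools per genotype, each of 3 or 4 lungs, and the comparison asked which transcripts changed when the epithelium lacked mTORC1.

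FGF ligands bind receptor tyrosine kinases together with heparan sulfate and signal through the RAS-MAP kinase relay. In the early lung, FGF10 from the distal mesenchyme binds the epithelial isoform of FGFR2 and draws out new buds, and FGF7 can bind the same isoform. FGF9 from the epithelium and mesothelium acts on receptors of the mesenchyme, and Sprouty proteins and ETS factors are classical feedback and response genes of the pathway.

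Whole reads recovered from the deposited values numbered 20197642 to 21276090 per pool. *Rptor* had 2126, 2193 and 2279 normalized counts in the control pools and 2023, 2137 and 2148 in the mutant pools (log2 fold change -0.06, limma adjusted p = 0.584), and a count of the whole gene in whole lung checks little of a deletion directed to the epithelium. The lung marker *Nkx2-1* averaged 2433 normalized counts in control and 2029 in mutant pools. Control pool 3 stood apart from control pool 2, with a chi-square per degree of freedom of 13.9, whereas the other pairs within a genotype lay between 2.19 and 7.90. The pools also differed in *Xist*, the transcript of the inactive X chromosome of females. Its normalized counts were 4599, 309 and 12989 in controls and 41.9, 466 and 161 in mutants. The Y-linked transcript *Ddx3y* had 1016, 1198 and 735 in controls and 1212, 1198 and 1177 in mutants. Sex make-up thus differed in part along with genotype, and their effects cannot be fully told apart. Among 17168 tested genes, 86 passed an adjusted p of 0.05 in limma (0.501%), 32 of them higher and 54 lower in mutant lungs.

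The sequences just before the RefSeq start sites of *Fgf10* and *Fgfr4* are shown because these members had the largest differences in each direction among those whose groups did not overlap. Both come from RefSeq on GRCm38.p6, are on the plus strand and run 5′ to 3′, with capitals for matches to the motifs searched on both strands.
Fgf10, chr13:118714449-118714698: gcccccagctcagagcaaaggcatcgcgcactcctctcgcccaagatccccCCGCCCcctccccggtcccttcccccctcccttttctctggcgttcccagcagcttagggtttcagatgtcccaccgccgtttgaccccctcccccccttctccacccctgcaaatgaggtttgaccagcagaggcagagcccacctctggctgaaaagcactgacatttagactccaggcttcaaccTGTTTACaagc
Fgfr4, chr13:55152568-55152817: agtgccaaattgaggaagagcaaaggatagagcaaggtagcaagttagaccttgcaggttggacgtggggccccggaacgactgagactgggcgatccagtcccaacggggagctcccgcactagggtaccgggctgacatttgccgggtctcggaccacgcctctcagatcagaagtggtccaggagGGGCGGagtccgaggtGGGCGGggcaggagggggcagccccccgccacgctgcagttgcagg
The capitals in *Fgf10* are a GC box (GGGCGG, here as CCGCCC) and a forkhead motif (TGTTTAC), and those in *Fgfr4* are 2 GC boxes. Over 32851 promoters of this length, 32.7% held a GC box and 3.17% the forkhead motif. The GLI motif GACCACCCA, held by 0.225% of promoters, had no match in either stretch. The T-box motif GGTGTGA had none either and was in 3.33% of promoters. The same was true of TATAAA, a core promoter motif found in 12.4% of promoters. The GC content was 61.2% for *Fgf10* and 64.0% for *Fgfr4*, beside a median of 52.4% over all promoters. RefSeq sequences were matched for 7 of the 10 members. In the GENCODE annotation *Fgf10* spans bases 118669791 to 118792115 of chromosome 13, so this RefSeq start lies within the annotated gene. *Fgfr4* spans bases 55152640 to 55168759 there, so most of its printed stretch lies within the annotated gene as well.

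The levels of the members were compared with each other per kilobase of annotated exon. In control pools, *Fgfr1* was the most abundant, with 416 ± 35.6 normalized counts per kilobase (SD, n = 3), followed by *Fgfr2* with 296 ± 20.1 and *Fgf10* with 124 ± 14.3. *Fgfr4* (70.3 ± 13.4), *Fgf18* (59.6 ± 6.58) and *Fgfr3* (59.0 ± 8.91) came next, and the pools of these neighbours overlapped. *Fgf9* followed with 39.0 ± 2.97, *Fgf1* with 8.14 ± 0.23 and *Fgf7* with 1.95 ± 0.45, each separate from its neighbours. *Fgf10* was therefore the most abundant of the 6 ligands, and the receptors of the mesenchyme and epithelium, *Fgfr1* and *Fgfr2*, exceeded every ligand. In mutant pools the first 3 places were the same, with *Fgfr1* at 444, *Fgfr2* at 253 and *Fgf10* at 193 normalized counts per kilobase. *Fgfr4* moved to the 6th place, with 43.5 ± 1.03, below *Fgf18* at 75.8 ± 16.3 and *Fgfr3* at 60.5 ± 6.09, while *Fgf18* and *Fgfr3* overlapped. When the longest coding transcript was used as the length instead, *Fgfr3* (99.4) preceded *Fgfr4* (74.9) and *Fgf18* (65.2) in control pools, and the other places stayed. In mutant pools that length put *Fgfr4* (46.4) below *Fgf9* (50.5) as well, so the place of *Fgfr4* depended on the length used.

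*Fgf10*, the ligand of the distal bud mesenchyme, rose in mutant lungs and was the only member that passed the adjusted threshold, that is 1 of 9 tested members against 0.186% of all tested genes called higher. Its normalized counts were 603, 611 and 493 in the controls and 844, 979 and 841 in the mutants. Every mutant pool lay above every control pool, and control pool 3 was the lowest. The mean went from 569 ± 65.8 to 888 ± 78.5 (SD, n = 3 each), a 1.56-fold ratio of means. The log2 fold change was 0.64 (SE 0.09, 95% interval 0.44 to 0.85, limma adjusted p = 0.0322). The edgeR test on the recovered reads gave an adjusted p of 0.0357, and DESeq2 gave 4.57e-07. The limma call was lost without control pool 1 (adjusted p = 0.192) and without mutant pool 1 (0.109), 2 (0.118) or 3 (0.149), while the log2 fold change stayed between 0.54 and 0.70. Control pool 3, which had the lowest *Fgf10* count, also had the highest *Xist* count, and with log2 *Xist* as a covariate the change was 0.57 (adjusted p = 0.148). In whole-lung RNA, a different share of cells that make a transcript and a different amount of it per cell cannot be told apart.

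**Figure D1:**
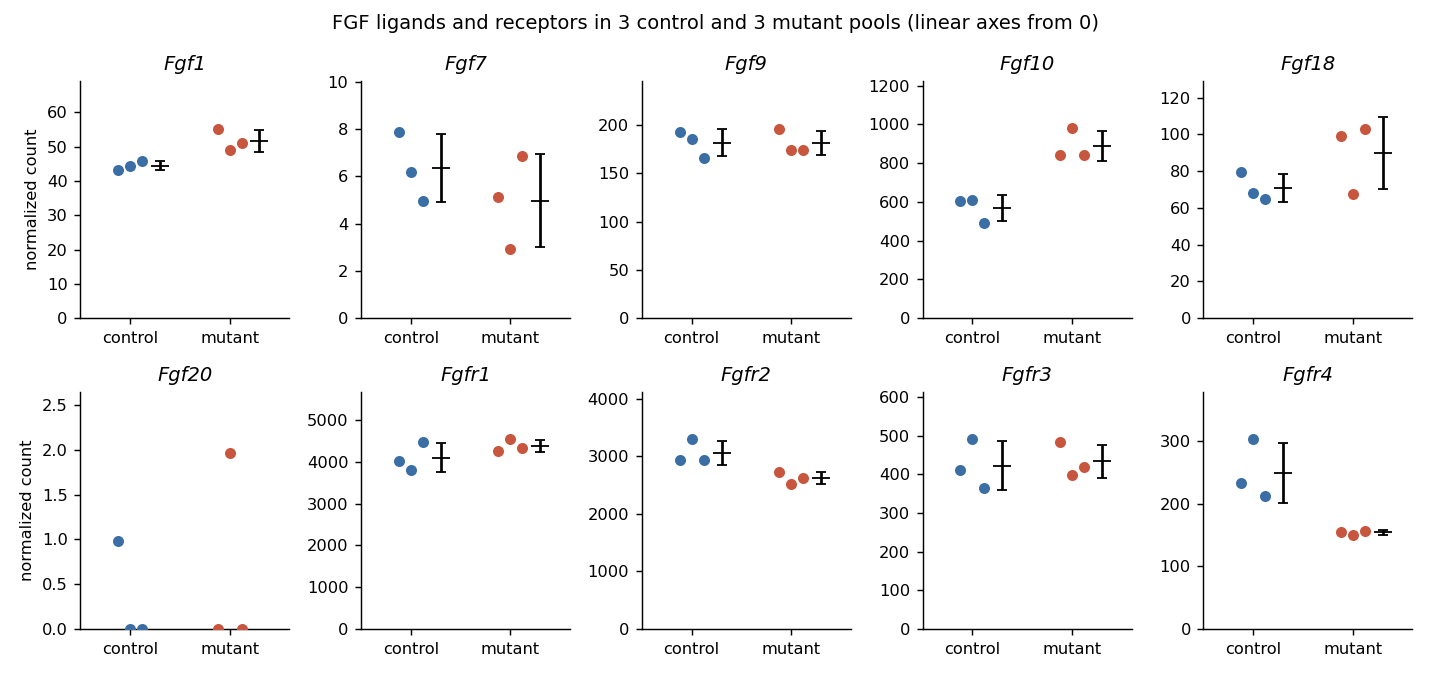
Normalized counts of the 10 FGF ligands and receptors in each of 3 control (blue) and 3 mutant (red) pools on linear axes that start at 0 and differ between panels. Black bars give mean ± SD, left out for *Fgf20*, which had at most 2 reads in a pool. *Fgf10* lay between 841 and 979 in mutant pools, above all control pools, and *Fgfr4* between 150 and 157, below all of them.

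The other ligands did not pass the adjusted threshold. *Fgf1*, a ligand that can bind all FGF receptors, had 43.2, 44.4 and 45.7 normalized counts in the controls and 55.2, 49.0 and 51.0 in the mutants. The mutant pools were all above the control pools by a small margin, but the log2 fold change of 0.21 (95% interval -0.16 to 0.59, adjusted p = 0.630) had an interval that included 0. *Fgf18*, a ligand of mesenchymal receptors, had 79.6, 68.2 and 64.6 normalized counts in control pools against 99.1, 67.7 and 103 in mutant pools. Mutant pools 1 and 3 were above all control pools and mutant pool 2 was among them, and the log2 fold change was 0.32 (-0.10 to 0.74, adjusted p = 0.488).

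*Fgf9* had 192.5, 186.0 and 166.0 normalized counts in the controls and 196.2, 174.5 and 173.7 in the mutants, so that the groups overlapped throughout. Its mean was 181 in both groups, and the interval of the log2 fold change ran from -0.24 to 0.24 (adjusted p = 0.999), which leaves room for changes of that size. *Fgf7*, whose product shares its receptor isoform with FGF10, was near the limit of detection, with 8, 6 and 5 reads in the controls and 5, 3 and 7 in the mutants. These overlapped, and the interval of its log2 fold change, -1.26 to 0.59 (adjusted p = 0.768), included both a fall and a rise. *Fgf20* had 1 read in control pool 1, 2 reads in mutant pool 2 and none in the other pools. Both groups were thus under the floor of 3 reads, and no fold change is given.

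Among the receptors, *Fgfr4* and *Fgfr2* were lower in every mutant pool than in any control pool but missed the adjusted threshold in limma. *Fgfr4*, a receptor expressed in endodermal epithelia, had 233, 303 and 212 normalized counts in the controls and 155, 150 and 157 in the mutants. The 3 mutant pools lay close together, and the control pools were spread, with control pool 2 the highest. The means were 249 ± 47.6 and 154 ± 3.66 (SD, n = 3 each), and the log2 fold change was -0.67 (SE 0.13, 95% interval -0.97 to -0.38). The adjusted p was 0.0661 in limma, 0.0678 in edgeR and 0.00557 in DESeq2. Without control pool 3, where 468 of 16993 tested genes passed, the limma adjusted p was 0.00670. Without any one of the other pools it was between 0.0664 and 0.309.

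*Fgfr2*, whose epithelial isoform receives the FGF10 signal, had 2941, 3298 and 2936 normalized counts in the controls and 2724, 2512 and 2618 in the mutants. The groups did not overlap, and their means were 3058 ± 207 and 2618 ± 106 (SD, n = 3 each). The log2 fold change was -0.22 (SE 0.06, 95% interval -0.35 to -0.10), with an adjusted p of 0.124 in limma, 0.119 in edgeR and 0.0322 in DESeq2. Without control pool 3 the limma adjusted p was 0.0245, and without any one of the other pools it was between 0.138 and 0.420. The counts were made per gene, so the epithelial and mesenchymal isoforms of *Fgfr2* were not separated.

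*Fgfr1*, the main receptor of the mesenchyme, had 4027, 3801 and 4490 normalized counts in the controls and 4273, 4547 and 4326 in the mutants. These overlapped, with a log2 fold change of 0.10 (-0.03 to 0.23, adjusted p = 0.507). *Fgfr3* had 411, 491 and 365 normalized counts in the controls and 482, 399 and 418 in the mutants. They overlapped as well, and the log2 fold change was 0.04 (SE 0.11, adjusted p = 0.903).

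**Figure D2:**
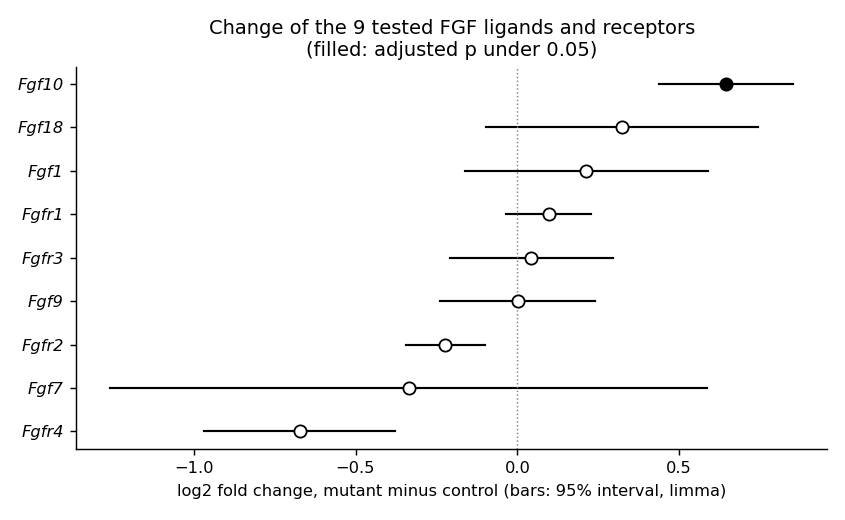
The log2 fold change (mutant minus control) of each of the 9 tested members, with bars for the 95% interval in limma. *Fgf10* is the filled point at 0.64, the only one with an adjusted p under 0.05, whereas the intervals of *Fgfr4* and *Fgfr2* lie below 0 and those of the other members include 0.

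Counted together, 2 of the 9 tested members (*Fgf1* and *Fgf10*) were higher without overlap between the groups and 2 (*Fgfr2* and *Fgfr4*) lower without overlap, beside 9.77% and 10.5% of all tested genes (20.2% in either direction). At an unadjusted p of 0.05, 1 member was higher and 2 were lower, beside 6.67% and 6.89% of all tested genes (13.6% in either direction). DESeq2 called 3 members (*Fgf10*, *Fgfr2* and *Fgfr4*) where it called 1.93% of all genes, and edgeR called *Fgf10* where it called 0.539%. The median log2 fold change of the members was 0.04, against -0.002 for all tested genes.

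Ratios within a pool do not depend on the scaling of the library, and 4 were compared. The log2 ratio of *Fgf10* to *Fgfr2* normalized counts was -2.29, -2.43 and -2.57 in the controls and -1.69, -1.36 and -1.64 in the mutants. Ligand relative to receptor was thus higher in every mutant pool, by 0.87 on the log2 scale. This had to follow, because *Fgf10* was higher and *Fgfr2* lower without overlap between the groups, so its permutation p adds no further evidence. As for single genes, the share of cells and the amount per cell cannot be told apart in these ratios. The log2 ratio of *Fgf9* to *Fgf10* was -1.64 ± 0.07 in control and -2.29 ± 0.19 in mutant pools, a difference of -0.64, which is the size of the change of *Fgf10* itself. That of *Fgfr1* to *Fgfr2* went from 0.42 ± 0.21 to 0.74 ± 0.10, a difference of 0.32 with every mutant pool above every control pool, and of 0.21 without control pool 2. That of *Fgf10* to *Fgf7* went from 6.51 ± 0.21 to 7.56 ± 0.74, and the spread of its mutant pools came with *Fgf7* counts of 3 to 7 reads. Its difference of 1.06 was 0.65 without mutant pool 2. Each of the 4 ratios had an exact two-sided permutation p of 0.1, which is the smallest that 3 pools against 3 can give, and 0.1 after adjustment over the 4 ratios. Every ratio holds *Fgf10* or *Fgfr2*, whose groups did not overlap, so the 4 are not separate results.

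**Figure D3:**
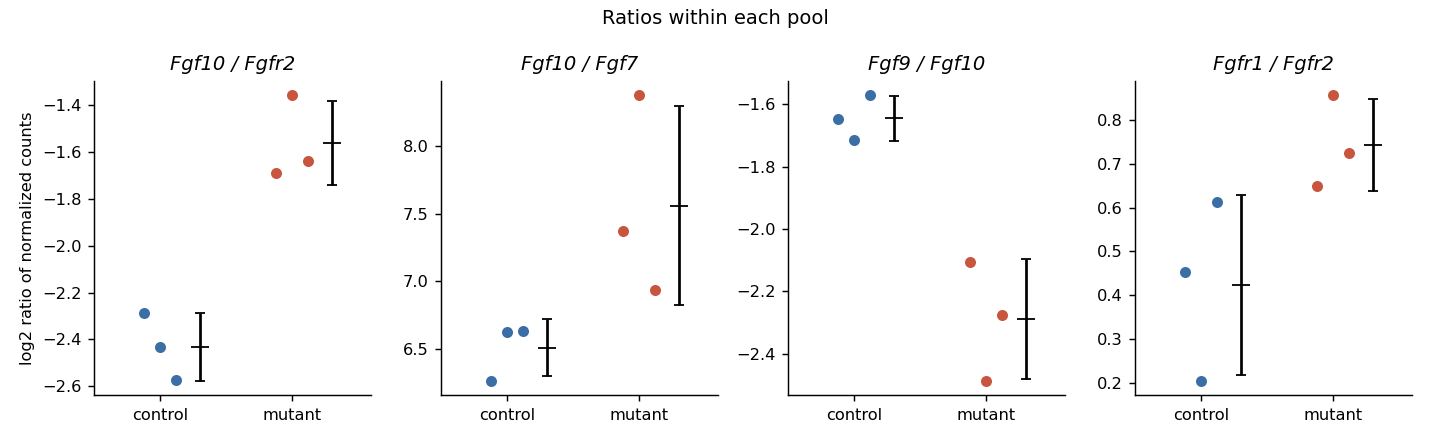
The log2 ratio of normalized counts of 2 members within each pool (blue, control; red, mutant), with black bars for mean ± SD and axes that do not start at 0 and differ between panels. The *Fgf10* to *Fgfr2* ratio lay between -1.69 and -1.36 in mutant pools and between -2.57 and -2.29 in control pools, and the groups did not overlap in any panel.

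Markers of the tissue layers that make the ligands and receptors were read beside them. Of 20 epithelial marker genes, 7 fell and none rose (adjusted p under 0.05 in limma, with 16 lower and 1 higher at an unadjusted p of 0.05), beside 0.315% of all tested genes called lower and 6.89% lower and 6.67% higher at that p. In this list 18 had a negative fold change, and the median log2 fold change was -0.47. Their summed normalized counts were 16240 to 20528 in control pools and 12749 to 13877 in mutant pools, and none was at 0. Among the 16 mesenchymal markers, 3 collagen genes rose (*Col1a1*, *Col1a2* and *Col3a1*) and none fell, with 7 higher and none lower at an unadjusted p of 0.05, the median was 0.19, and the sums were 114432 to 119871 in control and 137919 to 143311 in mutant pools. The 3 collagen genes summed to 69281 to 75288 in control and 88240 to 95749 in mutant pools, and the other 13 mesenchymal markers to 44583 to 47346 and 47561 to 49679, with a median of 0.14. Of 10 endothelial markers none was called in limma, 1 was called higher in DESeq2 and 6 were higher at an unadjusted p of 0.05. Their median was 0.19 and their sums were 13069 to 14927 in control and 15114 to 15809 in mutant pools. Cardiac markers had 2 of 8 lower at an unadjusted p of 0.05, none called in limma and 1 called lower in DESeq2, and their sums were 1200 to 1299 in control and 928.5 to 991 in mutant pools.

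Scaling each pool to the mean of the mesenchymal markers moved the median log2 fold change of all genes to -0.22. *Fgf10* was then higher in mutant pools by 0.43 on the log2 scale (limma adjusted p = 0.00644). With this scaling 6566 of 17168 tested genes passed, which eases the adjustment. The unadjusted limma p of *Fgf10* was 0.00072, against 3.94e-05 without the scaling. When pools were scaled to the epithelial markers, which moved the median of all genes to 0.45, *Fgfr2* turned to 0.23 (adjusted p = 0.150) and *Fgfr4* was at -0.22 (adjusted p = 0.299). Each scaling shifts all genes of a pool alike, so changes relative to the median of all genes cannot differ between scalings. These relative log2 fold changes were 0.65 for *Fgf10*, -0.22 for *Fgfr2* and -0.67 for *Fgfr4*. Smooth muscle markers summed to 7291 to 9070 normalized counts in control and 9655 to 10658 in mutant pools. A positive fold change was seen in 5 of 6, with none called in limma and 1 in DESeq2. Their count at an unadjusted p of 0.05 was 4 higher, beside 6.67% of all tested genes. Of 5 tested mesothelial markers none was called in limma, edgeR or DESeq2, and 2 were higher at that unadjusted p, beside the same 6.67%. The mesothelial sums were 6721 to 7396 in control and 7713 to 8202 in mutant pools. How far the make-up of the pools entered the members' values was not tested.

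**Figure D4:**
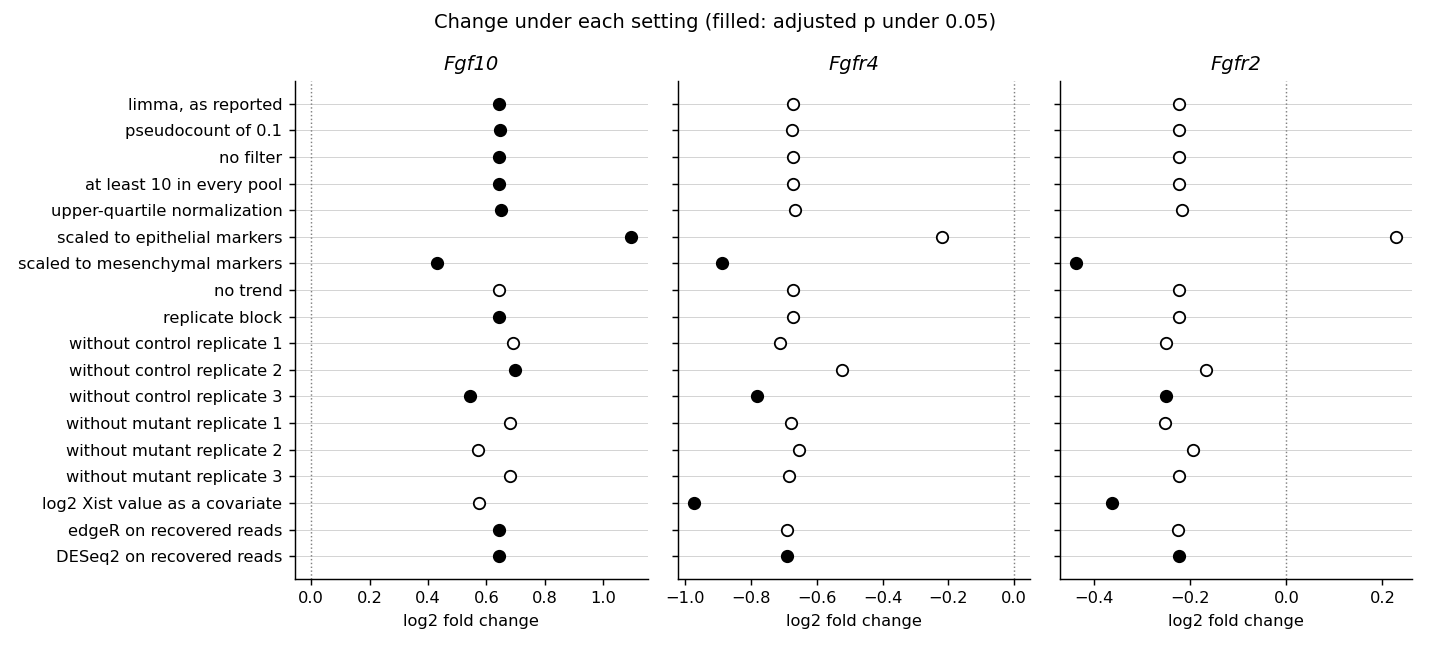
The log2 fold change (mutant minus control) of *Fgf10*, *Fgfr4* and *Fgfr2* under each setting, with filled points for an adjusted p under 0.05. *Fgf10* lies above 0 and *Fgfr4* below 0 in every row, whereas *Fgfr2* lies at 0.23 with pools scaled to epithelial markers and below 0 in the other rows.

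The genes whose values over the 6 pools were most like those of *Fgf10* were *Fam49a* (Pearson r 0.997 on the log2 scale), *H1f0* (0.996), *Rhou* (0.995), *Des* (0.995) and *Oaf* (0.994). Among 14583 genes with a mean of at least 10 normalized counts, 3.15% had an r above 0.9 with *Fgf10*. Genes most like *Fgfr2* included *Mthfd1* (0.995), *Cldn7* (0.992), *Dhx29* (0.992) and *Nup93* (0.990), and 2.04% had an r above 0.9. *Des* encodes the muscle intermediate filament desmin and *Cldn7* an epithelial tight junction protein. Among the members, *Fgfr2* and *Fgfr4* had the highest r with each other (0.97), and *Fgf10* had an r of -0.79 with *Fgfr2* and -0.77 with *Fgfr4*. These are descriptions over 6 pools that share 1 difference in genotype, and they carry no test.

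The wider FGF pathway was read from a list of 92 other genes, of which 91 were in the table and 85 were tested. Of these 1 rose and none fell in limma, and the count at an unadjusted p of 0.05 was 11 higher (12.9%) and 9 lower (10.6%), beside 6.67% and 6.89% of all tested genes, of which 0.186% were called higher and 0.315% lower. DESeq2 called 2 higher and 2 lower and edgeR 1 higher. The median log2 fold change was 0.001. The gene that rose was *Wt1*, a mesothelial transcription factor, which went from 756 ± 10.9 to 939 ± 46.6 normalized counts (SD, n = 3 each; log2 fold change 0.31, limma adjusted p = 0.0496). This call was lost with small changes of the processing, such as a pseudocount of 0.1 (adjusted p = 0.0542), and without any 1 pool except control pool 3 (0.0542 to 0.309).

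The splicing factors ESRP1 and ESRP2 favour the epithelial isoforms of FGF receptors. *Esrp1* averaged 775 ± 84.1 normalized counts in control and 585 ± 51.9 in mutant pools, without overlap, and its log2 fold change was -0.40 (adjusted p = 0.0999 in limma and 0.0110 in DESeq2). *Esrp2* averaged 524 ± 78.8 and 366 ± 31.1, also without overlap, with a log2 fold change of -0.51 (adjusted p = 0.0844 in limma and 0.00513 in DESeq2). The median of the 20 epithelial markers was -0.47. Scaling pools to those markers shifts all genes alike. Under it *Esrp1* turned positive and *Esrp2* kept its direction, because their changes lay on either side of the mean marker change. Whether either gene changed apart from the epithelial markers was not tested. *Rbfox2*, another splicing factor, was at 0.07 (adjusted p = 0.456). None of the 4 tested splicing factor genes passed in limma or edgeR, and 2 were lower at an unadjusted p of 0.05. Of all tested genes 6.89% were lower at that p. Without control pool 3 both *Esrp1* (-0.49, limma adjusted p = 0.00607) and *Esrp2* (-0.61, 0.00601) passed, among 468 genes in all. With another pool left out the limma adjusted p reached 0.322 for *Esrp1* and 0.299 for *Esrp2*.

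Among 8 receptor-like proteins, co-receptors and carriers none passed in limma. The count at an unadjusted p of 0.05 was 3 higher and 1 lower, beside 6.67% and 6.89% of all tested genes. *Flrt2*, a membrane protein of a family that binds FGF receptors, averaged 3001 ± 215 normalized counts in control and 3527 ± 131 in mutant pools without overlap (log2 fold change 0.24, adjusted p = 0.114 in limma and 0.0206 in DESeq2, the 1 call of this group there). It passed in limma without control pool 3 (0.29, adjusted p = 0.00601), and its adjusted p reached 0.420 with another pool left out. *Flrt1* was at 0.37 (adjusted p = 0.309). *Fgfbp1*, a carrier that releases FGFs from the matrix, averaged 21.7 ± 6.79 and 9.95 ± 1.98 without overlap (log2 fold change -1.02, adjusted p = 0.198).

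None of the 17 heparan sulfate enzymes and core proteins passed in limma, edgeR or DESeq2, and their median log2 fold change was -0.007. Their count at an unadjusted p of 0.05 was 1 higher and 2 lower, beside 6.67% and 6.89% of all tested genes. The lowest p-values belonged to the sulfatase *Sulf1* (log2 fold change 0.16, adjusted p = 0.156), the glypican *Gpc1* (-0.15, 0.161) and the syndecan *Sdc4* (-0.21, 0.303). Without control pool 3 *Sulf1* passed (0.20, limma adjusted p = 0.0136), and its adjusted p reached 0.489 with another pool left out. The relay from receptor to MAP kinase had 19 tested genes, none of which passed in limma, edgeR or DESeq2. Of these, 3 were higher and 1 lower at an unadjusted p of 0.05, beside the same shares of all tested genes. The leading relay genes were the adaptor *Shc1* (0.14, adjusted p = 0.199), the phosphatase *Ptpn11* (-0.10, 0.258) and the exchange factor *Sos2* (0.13, 0.335).

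None of the 13 feedback inhibitors and ETS response factors passed in limma, edgeR or DESeq2. Their count at an unadjusted p of 0.05 was 1 higher and 1 lower, beside 6.67% and 6.89% of all tested genes. *Spry1*, a feedback inhibitor, averaged 674 ± 30.9 normalized counts in control and 759 ± 50.5 in mutant pools without overlap (log2 fold change 0.17, adjusted p = 0.303). *Spry2*, the Sprouty gene of the distal epithelium, averaged 567 ± 35.3 and 625 ± 19.9 with overlap (0.14, adjusted p = 0.392). *Etv5*, an ETS factor that responds to FGF, averaged 5316 ± 833 and 4593 ± 44.9 with overlap (-0.20, adjusted p = 0.366), and it passed without control pool 3 (-0.31, adjusted p = 0.0113) and was at -0.08 without control pool 2 (adjusted p = 0.525).

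Of the 12 other ligand genes, 6 were tested and none passed in limma, edgeR or DESeq2 or at an unadjusted p of 0.05. Those with the lowest p-values were *Fgf5* (log2 fold change 0.26, adjusted p = 0.482), *Fgf2* (0.46, 0.667) and *Fgf22* (-0.67, 0.685), the last with at most 3 reads in a pool. *Fgf6* had no read in any pool. The 4 intracellular FGF homologous factors, which do not act through FGF receptors as secreted ligands do, all had positive log2 fold changes, and none passed in the same tests or at an unadjusted p of 0.05. They were led by *Fgf13* (0.24, adjusted p = 0.527), *Fgf11* (0.26, 0.569) and *Fgf12* (0.18, 0.669).

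**Figure D5:**
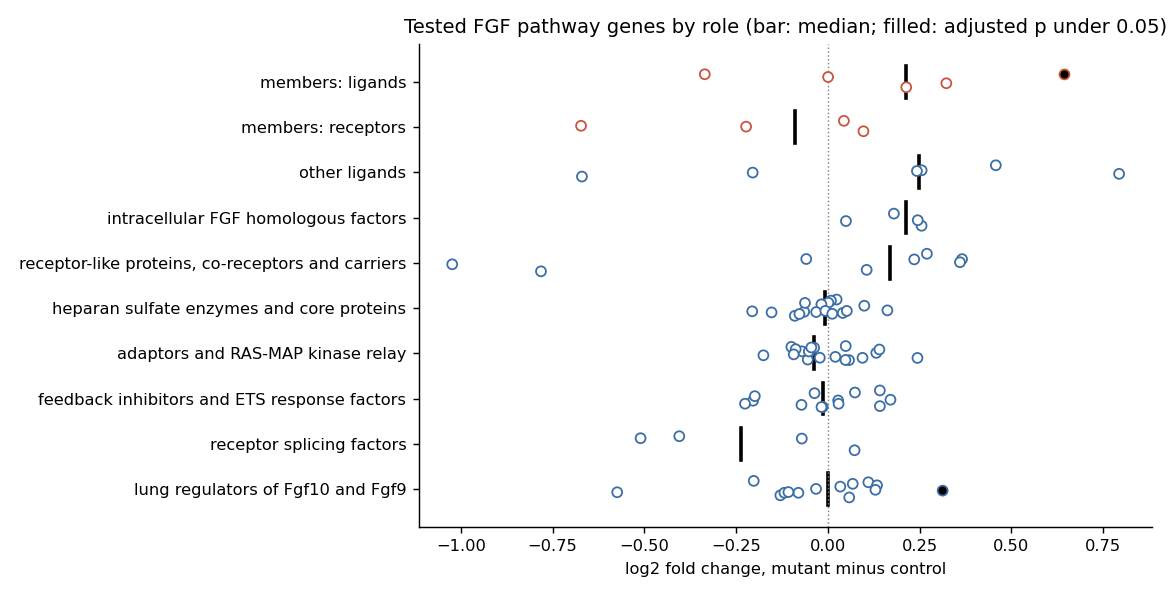
The log2 fold change (mutant minus control) of each tested member (red outline) and each other tested FGF pathway gene (blue outline) by role, with a bar at the median of each group and vertical scatter without meaning. Filled points passed an adjusted p of 0.05, namely *Fgf10* at 0.64 and *Wt1* at 0.31, and the medians of the heparan sulfate, relay and feedback groups lie between -0.04 and -0.007.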

How the data were processed

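RNA of whole lungs at E11.5dpc was measured by the authors on a BGISEQ-500 sequencer in 3 control and 3 mutant pools of 3 or 4 lungs each, and groups were taken from the labels. Trim Galore, HISAT2, featureCounts, DESeq2 and mm10 are named in the submitters' processing notes, without versions. The deposited signal values are counts of reads per gene that the authors divided by a size factor per library. The deposited table also holds the authors' log2 fold changes, p-values and a test score, which were not used. For 27 genes the symbol had been turned into a date. Lungs of later stages were not analysed here.

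Mutant was compared with control by limma 3.58.1 in R 4.3.3 (variance trend) on log2(normalized count + 1), which understates changes of low genes, for genes with at least 1 in at least 3 pools, with Benjamini-Hochberg adjustment at 0.05. Dividing each library by its step gave whole reads for 100% of values within 0.001. On these reads edgeR 4.0.16 (quasi-likelihood) called 79 of 14670 genes (0.539%) and DESeq2 1.42.0 called 277 of 14343 (1.93%). Ratios were tested by exact permutation. The scripts were tested on simulated data. Exon lengths and positions came from GENCODE M21 and promoters from RefSeq, both on GRCm38. With pools as replicates, the tests set group differences against the spread between pools, which limma moderates over all genes. The members and all gene lists were chosen with earlier results of these data known. Named genes were the members, in each role group the genes that passed or else up to 3 with the lowest p, *Rptor*, and the 5 genes most like *Fgf10* and *Fgfr2*, of which 1 is not reported here. The *Xist* covariate was added after seeing the data.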

Additional observations from a re-analysis of the deposited data

How the results depend on the processing

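Changed settings were pseudocount, filter, scaling, variance trend, replicate block, tool and left-out pool, and the cause of each difference was not tested unless stated. The 86 calls over all genes became 8 without the variance trend, 277 with DESeq2, 10895 (10825 higher) with pools scaled to epithelial markers and 6566 (6538 lower) with mesenchymal markers, where by construction the median of all genes shifts, and 1 to 468 with 1 pool left out. The lowest count, 1, came without control pool 1 or mutant pool 3. It was 12 and 21 without mutant pools 1 and 2, 147 without control pool 2 and 468 without control pool 3. The 1 member called became 0 without the trend, 2 with the *Xist* covariate, 3 with DESeq2 or mesenchymal scaling, 6 with epithelial scaling, and 0 to 3 with 1 pool left out. The 1 pathway gene called became 0 with a pseudocount of 0.1, no filter, at least 10 in every pool, no trend or the replicate block, 2 with *Xist*, 4 with DESeq2, 44 and 63 with mesenchymal and epithelial scaling, and 0 to 6 with 1 pool left out.

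*Fgf10* kept its direction under every setting run but not its call without the trend (0.64, adjusted p = 0.226), with the *Xist* covariate (0.57, 0.148) or, among the left-out pools (0.54 to 0.70), without control pool 1 or any mutant pool. *Fgfr2* passed with mesenchymal scaling (-0.44, adjusted p = 0.00216), the *Xist* covariate (-0.36, 0.0296), DESeq2 (-0.22, 0.0322) and without control pool 3 (left-out range -0.25 to -0.17), and turned to 0.23 with epithelial scaling. *Fgfr4* passed with the *Xist* covariate (-0.98, 0.0288) and mesenchymal scaling (-0.89, 0.00241).

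Direction also turned for these values, none of them called as reported. Each marker scaling shifts all genes alike, so a change smaller than the shift and opposite to it had to turn. Mesenchymal scaling gave -0.0017 for *Fgf1*, -0.21 for *Fgf9*, -0.12 for *Fgfr1*, -0.17 for *Fgfr3*, -0.035 for *Fgf12*, -0.053 for *Sulf1*, -0.075 for *Shc1*, -0.083 for *Sos2*, -0.045 for *Spry1*, -0.073 for *Spry2* and -0.14 for *Rbfox2*. Epithelial scaling gave 0.12 for *Fgf7*, 0.30 for *Gpc1*, 0.25 for *Sdc4*, 0.35 for *Ptpn11*, 0.25 for *Etv5*, 0.047 for *Esrp1* and 0.39 for *Rptor*. The *Xist* covariate gave -0.12 for *Fgf9* and -0.28 for *Fgfr3*. *Fgf9*, which was at 0.00045 as reported, was at -0.0016 in edgeR and -0.00053 in DESeq2, and with 1 pool left out between -0.062 and 0.044, while *Fgfr3* was between -0.056 and 0.16. With 1 pool left out *Fgf7* was between -0.56 and -0.06, *Fgf18* between 0.21 and 0.51 and *Fgfr1* between 0.04 and 0.16. The differences of the ratios were then 0.77 to 0.94 for *Fgf10* to *Fgfr2*, 0.65 to 1.37 for *Fgf10* to *Fgf7*, -0.74 to -0.55 for *Fgf9* to *Fgf10* and 0.21 to 0.41 for *Fgfr1* to *Fgfr2*, with exact permutation p-values of 0.1 or 0.2.

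Correlations of the deviations of same-numbered pools were -0.03, 0.17 and 0.06, and those of differently numbered pools ran from -0.17 to 0.13. These gave no clear sign that replicate numbers pair the pools, but 3 pools per group cannot exclude a pairing. With the replicate block 71 genes were called, *Fgf10* had an adjusted p of 0.00990, and the paired exact permutation p of each ratio was 0.25, the smallest 3 pairs allow.

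Depth limited *Fgf7* and *Fgf20*, for which the 19 and 15 reads of *Fgf7* per group have 95% Poisson intervals of 11.4 to 29.7 and 8.40 to 24.7, for counting error only.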
